A study of Mus musculus with 22 samples.

Results

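Lungs of mice kept in hypoxia and given ABT-263 were compared with lungs of mice kept in normoxia and given vehicle, the control condition of the study, so that both factors of its design differed between the groups. The study extracted total RNA from lungs of 22 young male C57BL6/j mice after 8 days and sequenced its mRNA. The groups compared hold 10 of the 22 libraries, 5 from hypoxia with ABT-263 at 50 mg/kg per day and 5 from normoxia with vehicle, chosen by sample title. The other 12 libraries, 6 from normoxia with ABT-263 and 6 from hypoxia with vehicle, entered the same fit and show each factor alone. Every expressed gene was a member of the comparison, 16638 of the 54532 genes in the table. The oxygen fraction of the hypoxia is not given in the sources used here. Each library carries a number of its own in the labels, and the p-values measure the spread between these libraries.

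Hypoxia stabilises the hypoxia-inducible transcription factors, which raise genes for oxygen delivery and for metabolism without oxygen, and in the lung it leads over weeks to thicker vessel walls and more red cells in the blood. ABT-263, also called navitoclax, is a small molecule that binds BCL-XL, BCL-2 and BCL-W, proteins that hold back apoptosis, and so frees their pro-apoptotic partners. It is used to remove senescent cells, and it is known to lower circulating platelets, which depend on BCL-XL, and lymphocytes, many of which depend on BCL-2.

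The libraries held 11509007 to 15744193 counts each. Lung markers were high in all 10 libraries compared, with the surfactant gene Sftpc at 23040 to 31570 CPM, the alveolar type 1 gene Ager at 1636 to 2552 CPM and the club cell gene Scgb1a1 at 35190 to 92220 CPM, where CPM, the usual depth-scaled count, relates a gene's count to the library's scaled total. In 3 of the 22 libraries, replicate 1 of each group except normoxia with vehicle, the treatment tag named the other treatment than the title. One of them, hypoxia ABT-263 replicate 1, is among the 10 compared, and results without the 3 are given where they differ. Hypoxia ABT-263 replicate 3 held the thymocyte genes Rag1 at 2.95 CPM and Dntt at 1.47 CPM, their highest values in the 22 libraries. Normoxia ABT-263 replicate 2 held the skeletal muscle genes Acta1 at 630.5 CPM and Ckm at 463.6 CPM. That library is outside the 10 compared but in the same fit. It therefore enters the single-factor comparisons and the estimate of spread that all tests share. Without it 5925 genes differed between the groups compared, beside 5704 with all libraries.

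By edgeR's quasi-likelihood test, with a threshold of 0.05 on the adjusted p, 5704 of the 16638 genes differed (34.3%), 2836 of them higher (17%) and 2868 lower (17.2%) in hypoxia with ABT-263. Changes of at least 2-fold were found in 417 genes that rose (2.51%) and 345 that fell (2.07%). The 5 libraries of one group lay entirely above the 5 of the other for 1753 higher genes (10.5%) and entirely below for 1685 lower ones (10.1%). The median log2 fold change over all genes was −0.01, and its median standard error (SE) was 0.12.

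Among the 12 largest rises were genes of very different function. Olfr78, an odorant-type receptor found in vascular smooth muscle and oxygen-sensing cells, was at 0.150, 0.199, 0.206, 0.228 and 0.357 CPM in the normoxia vehicle libraries and at 3.06, 3.61, 4.99, 5.16 and 5.30 CPM in the hypoxia ABT-263 libraries, a log2 fold change of 4.22 ± 0.33 (SE, n = 5 and 5, adjusted p = 1.72e-09). Ntrk2, which encodes TrkB, the BDNF receptor (ENSMUSG00000055254, GRCm38 chr13:58806569-59133970), was at 9.87, 9.999, 10.04, 11.0 and 13.9 CPM against 108, 134, 135, 166 and 175 CPM. Its log2 fold change was 3.71 ± 0.16 (adjusted p = 1.54e-13), which is 13.1-fold. For both genes the groups were far apart, with the lowest hypoxia ABT-263 library several times above the highest normoxia vehicle library. Several others encode secreted or membrane proteins. Ptx3, a soluble pattern recognition protein, rose by 3.54 ± 0.24, the receptor phosphatase Ptprr by 3.03 ± 0.15, the hyaluronan-degrading protein Cemip by 2.96 ± 0.26 and the hyaluronan link protein Hapln1 by 2.90 ± 0.26 on the log2 scale. Chil4, a chitinase-like protein, rose by 3.47 ± 1.02 with groups that overlapped, and the mitotic genes Ska1 and Pimreg, the heat shock genes Hspa1b and Hspa1a and the transcript AA467197 complete the 12.

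The 250 bases before the RefSeq start of Ntrk2 are shown because they hold 3 copies of the core of the hypoxia response element, the letters bound by hypoxia-inducible factors (ACGTG or GCGTG, searched on both strands, in capitals). The window is chr13:58806319-58806568 on the plus strand of GRCm38.p6, from RefSeq.
Ntrk2: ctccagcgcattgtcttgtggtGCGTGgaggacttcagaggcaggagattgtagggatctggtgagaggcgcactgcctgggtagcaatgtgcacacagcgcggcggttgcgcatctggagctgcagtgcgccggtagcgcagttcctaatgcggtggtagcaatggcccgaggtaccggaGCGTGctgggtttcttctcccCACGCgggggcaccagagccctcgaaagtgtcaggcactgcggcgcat
The copies begin 228, 69 and 48 bases before the start, and the last reads CACGC on the strand shown. Such a core is common, being present in 41.5% of all 27025 genes in the RefSeq table and in 34 of 38 genes (89.5%) of a list of known targets of the factor. Of the 12 largest rises 9 had a window, and 3 of these (33.3%) held the core, below the share of all genes. The core was also in 60.6% of mitotic and 71.4% of heat shock list genes with a window. A gene was counted if any of its windows held the core. A match describes the letters only.

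The largest falls were led by Ankrd63, an ankyrin repeat protein (ENSMUSG00000078137, GRCm38 chr2:118699103-118703963), at 15.8, 16.6, 17.2, 19.4 and 19.9 CPM in normoxia with vehicle and 0.261, 0.354, 0.413, 0.505 and 0.573 CPM in hypoxia with ABT-263. The groups did not overlap, and the log2 fold change was −5.36 ± 0.23 (adjusted p = 2.14e-14). Plvap, which forms the diaphragms of endothelial fenestrae and caveolae (ENSMUSG00000034845, GRCm38 chr8:71497765-71511752), was at 409.6, 436, 459.6, 564 and 624 CPM against 69.9, 92.5, 98.1, 105 and 149 CPM, again without overlap, and changed by −2.28 ± 0.18. The secreted olfactomedin Olfm2 (−2.99 ± 0.27), the endothelial proteoglycan Esm1 (−2.07 ± 0.24), the growth factor-binding protein Igfbp3 (−1.90 ± 0.17), the gelatinase Mmp9 (−1.99 ± 0.28) and Ackr4, a scavenger receptor of lymphoid chemokines (−2.12 ± 0.19), followed. Ppp2r2c, a regulatory subunit of protein phosphatase PP2A, fell with them (−2.49 ± 0.26). Lymphocyte genes complete the 12 largest falls, namely Fcmr, the Fc receptor of immunoglobulin M (−2.11 ± 0.16), Cd79a, a signalling chain of the B cell receptor (−1.97 ± 0.13), Bcl11a, a transcription factor of the B lineage (−1.90 ± 0.20), and Eomes, a transcription factor of natural killer (NK) cells (−1.96 ± 0.29).

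On the log2 scale the combined change of a gene is exactly the sum of 2 averages, the effect of hypoxia averaged over vehicle and ABT-263 and the effect of ABT-263 averaged over normoxia and hypoxia. An interaction of the factors is divided equally between the averages. Among the 5704 genes that passed, the average of hypoxia was the larger in 5054 and that of ABT-263 in 650 (11.4%). The median size of the first was 0.38 and that of the second 0.09. The averages passed the test themselves in 8152 genes (49%) for hypoxia and 423 genes (2.54%) for ABT-263. The large changes named so far differ in this respect. Ntrk2 changed by 4.03 ± 0.11 with hypoxia and −0.32 ± 0.11 with ABT-263 (adjusted p = 0.108), Plvap by −2.39 ± 0.12 and 0.12 ± 0.12 (adjusted p = 0.655), whereas Cd79a changed by −1.27 ± 0.09 and −0.70 ± 0.09 (adjusted p = 0.00015).

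Both averages passed with the same sign in 224 genes. Of these 224, 163 (0.98% of the genes tested) were lowered by both and 61 (0.367%) raised by both. A further 24 genes (0.144%) passed in both with opposite signs. Since the averages share their libraries, membership in these sets is a description. The counts depended on single libraries. With each library left out in turn, the genes raised by both numbered 16 to 114, those lowered by both 103 to 224 and the opposed 6 to 42. Without the 3 libraries with conflicting labels they were 57, 122 and 18. With the treatment read from the tag in place of the title all were 0, so these sets rest on the titles. The combined count itself was 5480 without the 3 libraries and 5963 with the tag.

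**Figure D1:**
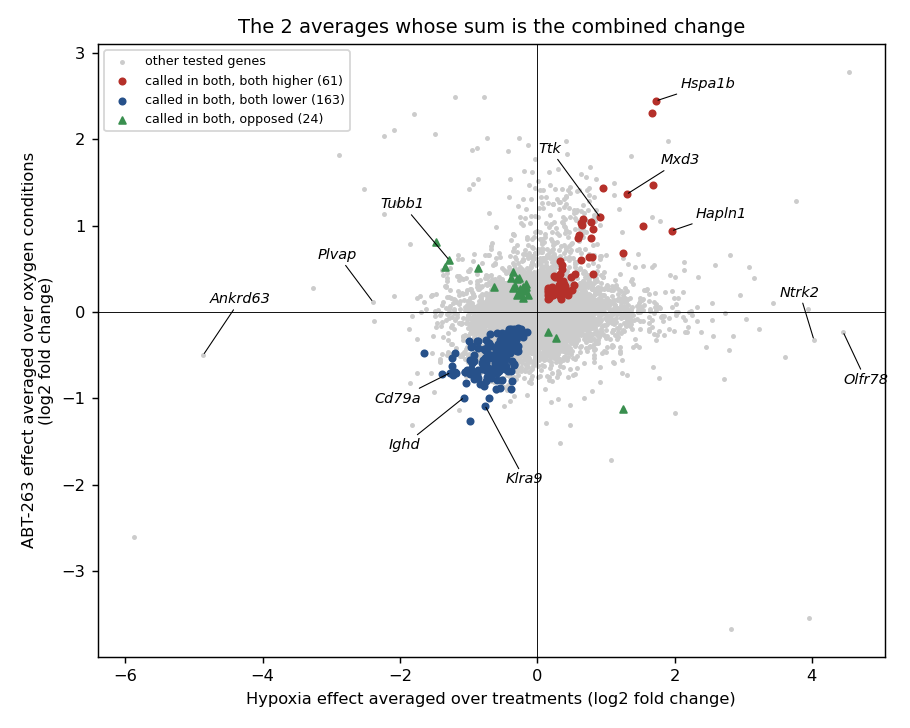
Each point is 1 of the 16638 tested genes, with the effect of hypoxia averaged over treatments on the horizontal axis and the effect of ABT-263 averaged over oxygen conditions on the vertical axis (both log2 fold changes). Red, blue and green mark the 61, 163 and 24 genes that passed in both averages; Ntrk2, Plvap and Ankrd63 lie far out along the hypoxia axis and close to 0 on the other.

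The genes that both factors lowered included many lymphocyte genes. In whole-lung RNA, fewer cells of a type and less RNA per cell cannot be told apart. Of the 163, 50 are in the lists of B cell, T cell, NK and plasma cell genes, 23, 10, 15 and 2 respectively. The median combined change of the 163 was −1.13, and 102 fell by at least 2-fold. Their groups did not overlap in 161, beside 10.1% of all genes. The 2 averages had similar medians, −0.58 for hypoxia and −0.51 for ABT-263. All 4 single-factor contrasts were negative in 161 of 163. As the set was chosen by negative averages, these signs and the separation largely follow from that choice. Genes of the set outside the lists include the pan-leukocyte phosphatase Ptprc, the kinase Btk of the B cell receptor pathway and the lymphoid transcription factor Ikzf1, which were named after their values were seen. Ffar1, a fatty acid receptor (−1.66 ± 0.30), Cacna1i, a calcium channel subunit (−1.64 ± 0.21), and the zinc finger gene Zfp831 (−1.61 ± 0.27) were also among the set's leading genes by rank. Without any one of normoxia vehicle replicates 3 and 4 and hypoxia ABT-263 replicates 4 and 5 the set held 106, 104, 103 and 107 genes.

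B cell genes fell almost without exception. Of 27 tested, 26 fell and none rose in the combined contrast, where 17.2% of all genes were lower and 17% higher. The median was −1.45 beside −0.01 over all genes. In 26 the hypoxia ABT-263 libraries all lay below the controls, beside 10.1% of all genes. Cd79a (ENSMUSG00000003379, GRCm38 chr7:24897381-24902197) was at 43.5, 52.4, 54.1, 59.1 and 76.9 CPM in normoxia with vehicle and at 12.5, 14.5, 14.8, 15.3 and 15.8 CPM in hypoxia with ABT-263. The hypoxia ABT-263 libraries lay close together, far below the lowest control. Levels were 31.9 to 44.0 CPM with ABT-263 alone, the highest of which reaches the lowest control, and 19.7 to 29.1 CPM with hypoxia alone. The change of −1.97 ± 0.13 (adjusted p = 1.44e-10) compares with a sum of single-factor changes of −1.77.

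Ighd, the constant region of immunoglobulin D carried by naive B cells (ENSMUSG00000104213, GRCm38 chr12:113406604-113416324), showed the largest ABT-263 average among the B cell genes named here. It was at 77.1, 90.9, 95.9, 119 and 127 CPM against 20.8, 22.2, 23.0, 23.9 and 31.9 CPM, without overlap, and changed by −1.07 ± 0.09 with hypoxia and −0.99 ± 0.09 with ABT-263 (adjusted p = 8.68e-07). The combined change was −2.06 ± 0.14 (adjusted p = 1.55e-10). Immunoglobulin genes share sequence, and how reads were divided between them is uncertain.

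The inhibitory receptor Cd22 was at 26.4, 26.9, 27.9, 37.5 and 39.5 CPM against 9.19, 10.2, 10.5, 12.3 and 13.99 CPM. The groups did not overlap, and the averages were −0.72 ± 0.10 for hypoxia and −0.77 ± 0.10 for ABT-263. Fcmr leaned to hypoxia, with −1.39 ± 0.10 and −0.72 ± 0.10. Fcer2a, the low-affinity receptor of immunoglobulin E, changed by −1.69 ± 0.16 and the Fc receptor-like protein Fcrl1 by −1.63 ± 0.18 in all, and neither gene's groups overlapped.

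NK and cytotoxic genes also fell in the combined contrast, with 26 of 27 lower, beside 17.2% of all genes, none higher and a median of −1.35. Klra9, a receptor of the Ly49 family (ENSMUSG00000033024, GRCm38 chr6:130178675-130193112), was at 4.04, 4.50, 5.79, 7.03 and 8.04 CPM in the controls and 0.495, 1.57, 1.88, 2.09 and 2.16 CPM in hypoxia with ABT-263. The average of ABT-263 was −1.09 ± 0.19 (adjusted p = 0.00293) and that of hypoxia −0.76 ± 0.20 (adjusted p = 0.00227). The levels were 1.76 to 3.60 CPM with ABT-263 alone and 1.88 to 4.79 CPM with hypoxia alone, which overlapped each other. Genes of this family are near-identical and their counts are uncertain. Il2rb, a chain of the interleukin 2 and 15 receptors, fell from 11.2, 12.9, 13.9, 20.6 and 20.9 CPM to 4.01, 4.53, 4.62, 5.30 and 6.44 CPM and leaned to hypoxia (−1.20 ± 0.11 against −0.47 ± 0.11). Eomes was at 2.33, 2.57, 3.19, 3.51 and 3.82 CPM against 0.573, 0.695, 0.707, 0.721 and 1.24 CPM, and Klrb1c, the NK1.1 antigen, changed by −1.54 ± 0.17.

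Of 26 T cell genes 24 fell, beside 17.2% of all genes, and none rose, with a smaller median of −0.95. In 19 the groups did not overlap, beside 10.1% of all genes. Trac, the constant region of the T cell receptor alpha chain, was at 7.27, 8.43, 8.57, 9.66 and 10.3 CPM against 2.52, 2.70, 3.10, 3.30 and 3.54 CPM and changed by −1.54 ± 0.15 (adjusted p = 5.47e-08). Ccr7, the homing receptor of naive T cells and of dendritic cells, was at 18.4, 20.8, 22.5, 29.7 and 30.4 CPM against 9.16, 11.3, 12.3, 13.2 and 13.3 CPM, a change of −1.04 ± 0.13. Both genes were lower in every library of hypoxia with ABT-263 than in any control. Hypoxia ABT-263 replicate 3, the library with thymocyte Rag1 and Dntt, had the highest T cell list level of its group, and without it 24 genes fell as well, with a median of −0.99. The thymocyte gene Ptcra was at most 0.0826 CPM in the 10 libraries.

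Plasma cell genes fell in 7 of 11 cases, beside 17.2% of all genes, with a median of −1.06. The median was −0.85 for the hypoxia average and −0.17 for that of ABT-263. Irf4, a transcription factor of plasma and activated B cells, changed by −1.15 ± 0.15 and Mzb1, a chaperone of immunoglobulin assembly, by −1.06 ± 0.16. For neutrophil genes the list median was −0.47 for hypoxia and near 0 for ABT-263, with 6 of 17 lower and 3 higher in all (5 higher without hypoxia ABT-263 replicate 1), the rises being near the share of all genes (17%). Csf3r, the receptor of granulocyte colony-stimulating factor, was at 23.8, 27.1, 28.2, 35.7 and 44.2 CPM against 5.04, 8.98, 9.82, 10.2 and 11.4 CPM, without overlap. Wfdc21 of the neutrophil list went the other way and rose by 1.76 (adjusted p = 2.04e-06).

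The level of a list in a library, the mean log2 of CPM plus 0.5 over its tested genes, was lowest with both factors for each lymphocyte list. For B cells it was 4.68 to 5.36 in normoxia with vehicle, 4.31 to 4.60 with ABT-263 alone, 4.12 to 4.42 with hypoxia alone and 3.51 to 3.75 with both. For B cells the single-factor groups overlapped each other and no other pair of groups did. For NK genes the 4 ranges were 2.50 to 3.05, 1.88 to 2.41, 1.75 to 2.29 and 1.18 to 1.81, and for T cells 2.96 to 3.42, 2.47 to 2.86, 2.54 to 2.71 and 2.20 to 2.62, and here both factors together overlapped either factor alone.

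**Figure D2:**
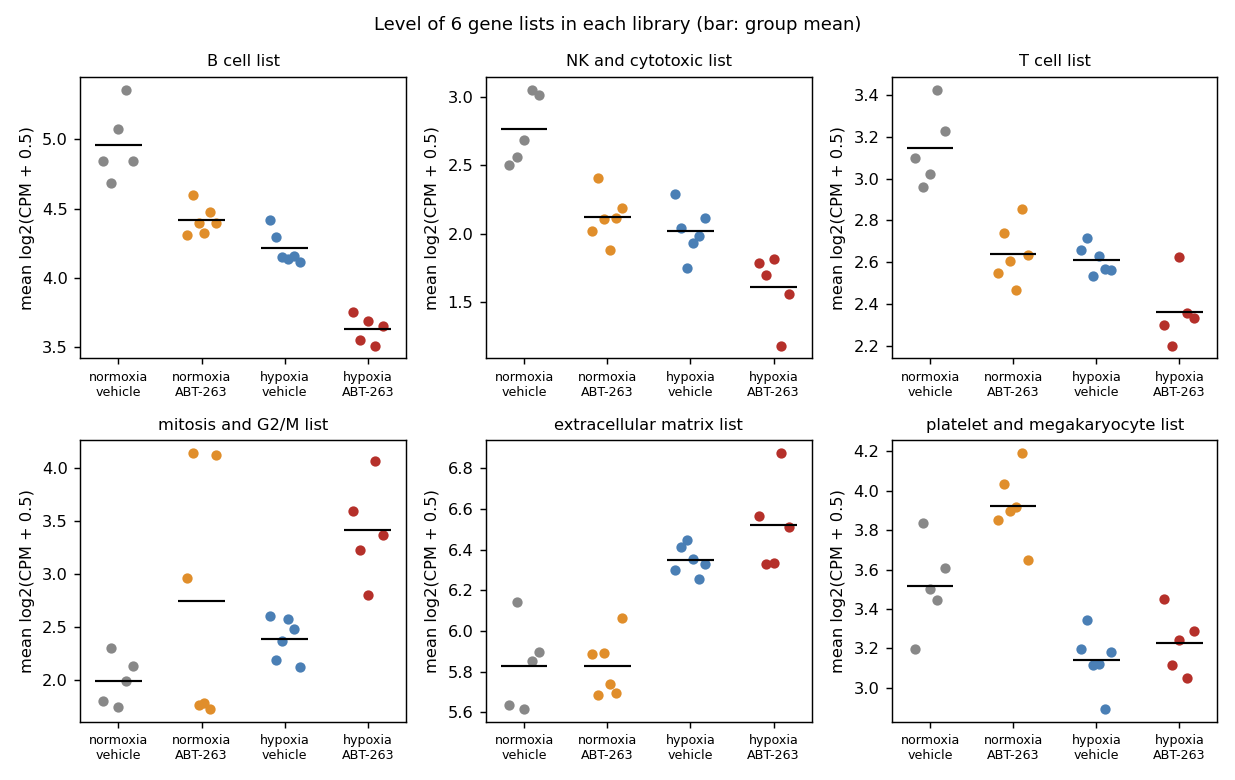
Mean log2(CPM + 0.5) over the tested genes of 6 lists in each of the 22 libraries, 1 point per library and a bar at the group mean. B cell, NK and T cell levels are lowest with both factors; mitosis levels of normoxia ABT-263 libraries run from 1.73 to 4.14; matrix levels separate by oxygen, and platelet levels run from 3.65 to 4.19 with ABT-263 alone, up to 3.84 in the controls.

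The genes that both factors raised were a mixed set. Their median combined change was 0.71, and 21 of 61 rose by at least 2-fold. The groups did not overlap in 53, beside 10.5% of all genes. As the set was chosen by positive averages, these values largely follow from that choice. Mitosis, DNA replication and heat shock lists held 2, 1 and 5 of them. Genes with a role in cell division outside the lists, chosen after their values were seen, include the kinetochore gene Ska1, the helicase gene Pif1 and the spindle gene Tacc3. The set was sensitive to single libraries, as it numbered 19, 18, 23 and 27 without normoxia vehicle replicates 1, 3, 4 and 5, 27 and 25 without normoxia ABT-263 replicates 1 and 6, and 25, 23, 37 and 31 without hypoxia vehicle replicates 1, 2, 4 and 6. It numbered 114, 16 and 20 without hypoxia ABT-263 replicates 1, 4 and 5.

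Hapln1, which links hyaluronan to proteoglycans (ENSMUSG00000021613, GRCm38 chr13:89539796-89611652), rose with each factor. It was at 0.685, 0.795, 0.899, 0.911 and 1.07 CPM in normoxia with vehicle, 0.658, 1.21, 1.73, 1.76, 2.32 and 2.68 CPM with ABT-263 alone, 2.33, 2.64, 3.76, 3.87, 3.90 and 4.64 CPM with hypoxia alone and 5.30, 5.78, 6.79, 7.07 and 7.78 CPM with both. Every library with both factors was above every other library. Hypoxia contributed 1.96 ± 0.17 and ABT-263 0.94 ± 0.17 (adjusted p = 0.00359), and the combined change of 2.90 ± 0.26 (adjusted p = 1.45e-08) was within its error of the sum of the single-factor changes, with an interaction of −0.10 (95% interval −0.79 to 0.58). Adamts4, a protease of the proteoglycan aggrecan, was at 0.548, 0.571, 0.674, 0.835 and 0.928 CPM against 1.999, 2.05, 2.40, 3.10 and 4.10 CPM and rose by 1.93 ± 0.27. Mettl21e, a member of a methyltransferase family, was at 0.822, 0.987, 1.13, 1.64 and 2.02 CPM against 3.75, 7.39, 7.93, 8.63 and 11.0 CPM and rose by 2.55 ± 0.31, with 1.55 ± 0.20 from hypoxia and 1.0 ± 0.20 from ABT-263.

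Mitotic genes gave the highest list median in the combined contrast, 1.65, with 34 of 40 higher, beside 17% of all genes, and none lower. In 38 the groups did not overlap, beside 10.5% of all genes. Ttk, a kinase of the spindle checkpoint (ENSMUSG00000038379, GRCm38 chr9:83834689-83872389), was at 0.206, 0.607, 0.643, 0.899 and 1.06 CPM in normoxia with vehicle and 1.31, 2.89, 3.03, 3.13 and 3.54 CPM in hypoxia with ABT-263. Ndc80, a kinetochore protein, was at 1.79, 1.85, 2.12, 2.62 and 2.81 CPM against 4.52, 4.83, 7.10, 8.73 and 10.4 CPM, and Nusap1, which bundles spindle microtubules, at 2.60, 3.79, 4.24, 4.29 and 6.22 CPM against 13.3, 13.8, 16.7, 17.6 and 23.7 CPM. In all of these genes each hypoxia ABT-263 library lay above each control. Their log2 fold changes were 2.01 ± 0.45, 1.68 ± 0.37 and 2.01 ± 0.45, with adjusted p = 0.00133, 0.00145 and 0.00201. Ska1, a kinetochore protein with the largest rise among them, was at 0.274, 0.428, 0.450, 0.464 and 0.911 CPM against 2.87, 3.47, 4.62, 5.21 and 6.51 CPM and changed by 3.16 ± 0.55. Mxd3, a partner of the MYC network protein MAX, was at 0.571, 1.12, 1.29, 1.30 and 1.92 CPM against 5.89, 6.52, 8.01, 8.15 and 11.2 CPM and changed by 2.67 ± 0.48.

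The mitotic list median was 1.2 in the average of ABT-263, with 21 of 40 genes higher beside 1.23% of all genes. In that of hypoxia it was 0.39, with 6 of 40 higher, below the 23% of all genes. With hypoxia in vehicle 0 of 40 passed (26.3% of all genes did). The number was also 0 with ABT-263 in normoxia (0.535% did) and with ABT-263 in hypoxia (0.301% did). Within groups the level varied widely. List levels were 1.75 to 2.30 in normoxia with vehicle, 2.12 to 2.61 with hypoxia alone and 2.80 to 4.07 with both, whereas with ABT-263 alone replicates 3, 4 and 5 were at 1.73 to 1.79, within or below the controls, and replicates 1, 2 and 6 at 2.96 to 4.14. Hypoxia ABT-263 replicates 1 and 4 had the highest levels of the 10 libraries compared. Without both, an alternative added after the data were seen, 12 genes were called higher and the median was 1.25. Without replicate 4 alone there were 24, and with the treatment read from the tag 16. In a fit of the 10 compared libraries only, all 40 were called. Genes of DNA replication rose in 10 of 36 cases, beside 17% of all genes, and fell in none, with a median of 0.40. The G1/S cyclin Ccne2 changed by 1.42 ± 0.28, thymidylate synthase Tyms by 0.86 ± 0.20 and the replication helicase factor Cdc45 by 1.06 ± 0.28. The count was 6 without any one of normoxia vehicle replicates 3 and 5 and hypoxia ABT-263 replicate 4, close to the share of all genes, and 19 in the fit of the 10 libraries only. The level of the erythroid list, which marks another dividing lineage, was 5.16 to 5.24 in the controls and 5.65 to 6.09 in hypoxia with ABT-263, and its part in the mitotic and replication counts was not tested.

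Windows before Ttk, of the mitotic list, and Gas2l3, which is outside it and encodes a cytoskeletal linker of dividing cells, are shown because CCAAT boxes, bound by the factor NF-Y, recur in promoters of cell division genes (CCAAT or, on the other strand, ATTGG, in capitals). They cover the 250 bases before the RefSeq start, chr9:83834439-83834688 on the plus strand for Ttk and chr10:89443968-89444217 on the minus strand for Gas2l3, in GRCm38.p6, from RefSeq.
Ttk: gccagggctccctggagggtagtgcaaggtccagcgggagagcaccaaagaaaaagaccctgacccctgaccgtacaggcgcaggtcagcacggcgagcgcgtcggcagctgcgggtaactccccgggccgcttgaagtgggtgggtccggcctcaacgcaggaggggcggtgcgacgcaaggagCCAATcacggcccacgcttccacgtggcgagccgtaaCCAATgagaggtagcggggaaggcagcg
Gas2l3: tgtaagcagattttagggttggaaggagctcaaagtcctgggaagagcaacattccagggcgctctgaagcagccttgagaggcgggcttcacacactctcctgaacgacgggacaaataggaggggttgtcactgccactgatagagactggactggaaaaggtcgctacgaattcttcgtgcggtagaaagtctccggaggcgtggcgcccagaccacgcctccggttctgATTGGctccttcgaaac
Of the 40 genes of the mitotic list 33 had a window in the RefSeq table. In 26 of these genes (78.8%) any window held CCAAT on either strand, beside 37.5% of all genes with a window. The letters TTTGAA of the cell cycle homology region were in 11 of 33 (33.3%), beside 18.3% of all. Gas2l3 was at 0.857, 1.12, 1.19, 1.51 and 1.59 CPM against 3.19, 3.61, 4.08, 5.20 and 5.38 CPM and rose by 1.77 ± 0.33, with 0.81 ± 0.22 from hypoxia and 0.96 ± 0.22 from ABT-263.

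Heat shock genes rose in a few members, and unevenly between libraries. Of 33 tested, 7 rose and 4 fell, the rises near and the falls below the shares of all genes (17% and 17.2%), and the list median of 0.15 was −0.02 without hypoxia ABT-263 replicate 5. The falls were 1 without the 3 libraries with conflicting labels or any one of normoxia vehicle replicate 2 and hypoxia ABT-263 replicates 1 and 2, and 2 without any one of normoxia vehicle replicates 4 and 5 and hypoxia ABT-263 replicate 3. Hspa1b, an inducible HSP70 chaperone (ENSMUSG00000090877, GRCm38 chr17:34956436-34959238), was at 1.30, 2.64, 2.70, 3.11 and 4.11 CPM in normoxia with vehicle and 3.32, 21.3, 26.8, 33.2 and 168 CPM in hypoxia with ABT-263. The lowest of these is replicate 1, within the range of the controls, and the highest is replicate 5. Its near-identical neighbour Hspa1a gave 2.06, 2.43, 2.96, 3.07 and 4.77 CPM against 3.53, 19.0, 25.6, 30.8 and 163 CPM, and how reads were divided between the pair is uncertain. The log2 fold changes were 4.18 ± 0.75 and 3.98 ± 0.77 (adjusted p = 0.000352 and 0.000641), and 2.93 and 2.69 without replicate 5.

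The co-chaperones of HSP70 followed the same libraries. Dnajb1 was at 33.4, 36.6, 37.0, 43.5 and 45.6 CPM against 44.3, 103, 114, 122 and 230.0 CPM and Dnaja1 at 49.1, 62.9, 65.8, 66.9 and 70.0 CPM against 73.8, 119, 146, 147 and 262 CPM. Again replicate 5 was the highest and replicate 1 the lowest, and only for Dnaja1 did the groups not overlap. Although counted among the genes that both factors raised, none of these 4 genes passed the test with hypoxia in vehicle (26.3% of all genes did) or with ABT-263 in normoxia (0.535% did). Hspa1b changed by 0.22 ± 0.81 with hypoxia in vehicle and 0.94 ± 0.77 with ABT-263 in normoxia, but by 3.96 ± 0.69 with ABT-263 in hypoxia (adjusted p = 0.0275), a contrast in which 0.301% of all genes passed. The interaction was 3.02 (95% interval 0.83 to 5.21), with an unadjusted p of 0.00954 and an adjusted p of 0.379. For Dnajb1 it was 1.12 (95% interval 0.37 to 1.87) and for Dnaja1 0.80 (95% interval 0.22 to 1.39), with adjusted p = 0.351 and 0.379.

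The windows before Hspa1b and Hspa1a are shown because each holds a heat shock element (GAANNTTC) and a CCAAT box (here ATTGG), both in capitals, at the same distance from the start. They are chr17:34959239-34959488 and chr17:34972157-34972406, both on the minus strand of GRCm38.p6, from RefSeq.
Hspa1b: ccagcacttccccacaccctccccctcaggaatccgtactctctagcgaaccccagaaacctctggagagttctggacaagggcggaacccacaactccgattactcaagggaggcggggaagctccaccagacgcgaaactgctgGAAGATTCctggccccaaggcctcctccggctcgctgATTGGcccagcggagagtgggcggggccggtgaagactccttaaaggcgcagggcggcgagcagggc
Hspa1a: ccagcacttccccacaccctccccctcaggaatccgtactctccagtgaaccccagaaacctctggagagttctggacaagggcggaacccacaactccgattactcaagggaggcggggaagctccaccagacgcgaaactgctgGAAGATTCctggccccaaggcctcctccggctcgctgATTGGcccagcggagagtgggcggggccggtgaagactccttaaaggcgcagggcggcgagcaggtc
The element lies 104 to 97 bases and the box 67 to 63 bases before the start in both, and 247 of 250 positions are identical. GAANNTTC, whose reverse complement is itself, was in any window of 7 of 28 heat shock genes (25.0%) and of 7.73% of all genes with a window.

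**Figure D3:**
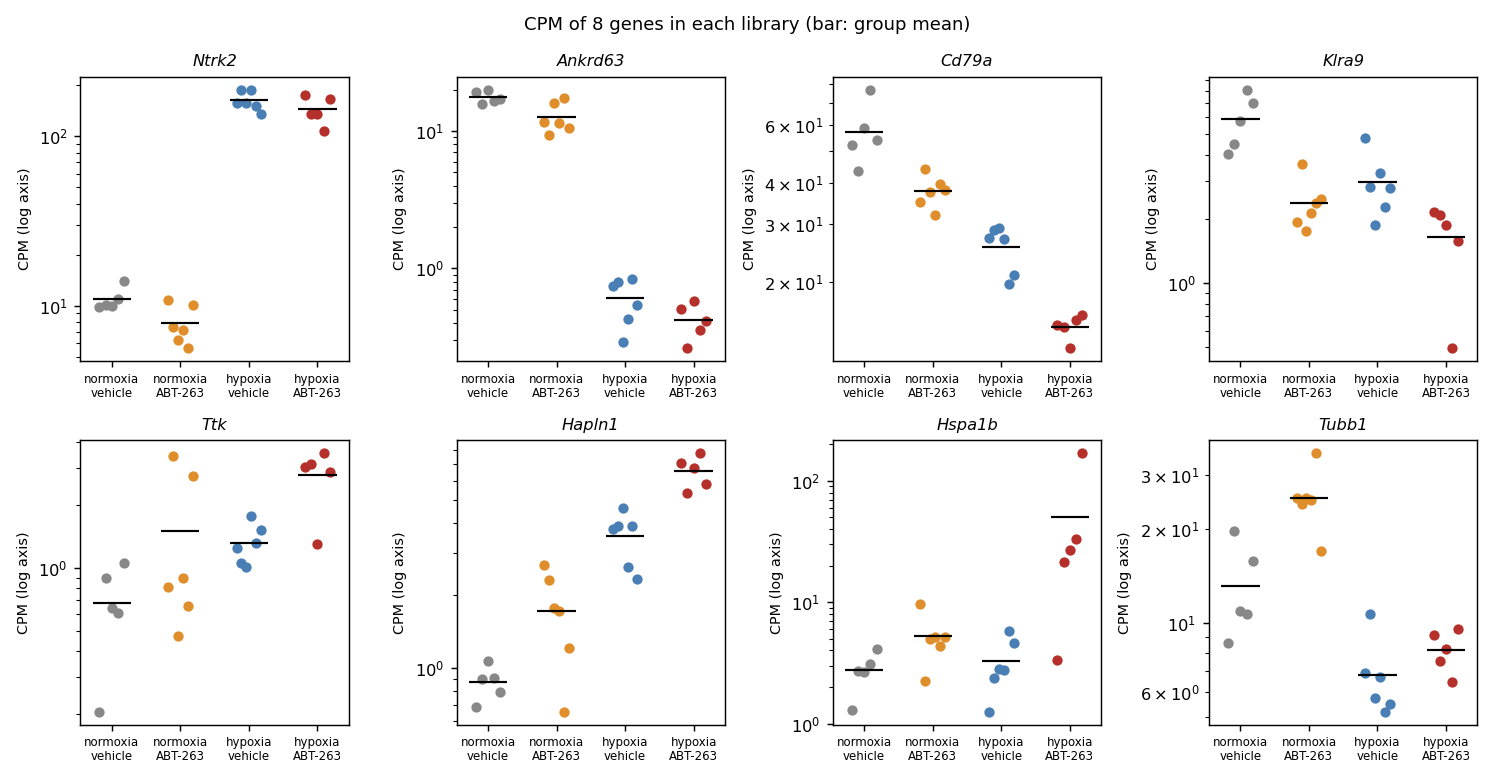
CPM of 8 genes in each of the 22 libraries on log axes, 1 point per library and a bar at the group mean. Ntrk2 and Ankrd63 separate by oxygen, Cd79a and Klra9 step down and Hapln1 steps up with each factor, Hspa1b is raised in 4 of 5 libraries with both factors, and Tubb1 is highest with ABT-263 alone.

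The factors opposed each other in 24 genes, of which 21 were lower with hypoxia and higher with ABT-263 and 3 were the reverse. The median combined change was 0.01 in the first group and −0.04 in the second. Single genes lay further from 0, such as Tubb1 and Gp5 below, and 3 of the 24 passed the test of the combined change. The platelet and megakaryocyte list holds 3 of the 21. Tubb1, the beta tubulin of platelets (ENSMUSG00000016255, GRCm38 chr2:174450695-174457882), was at 8.63, 10.7, 10.9, 15.8 and 19.7 CPM in the controls, 17.1, 24.2, 24.9, 25.2, 25.2 and 35.1 CPM with ABT-263 alone, 5.18, 5.47, 5.72, 6.70, 6.93 and 10.7 CPM with hypoxia alone and 6.44, 7.56, 8.27, 9.16 and 9.58 CPM with both. The last group overlapped the controls, with hypoxia adding −1.28 ± 0.15 and ABT-263 0.60 ± 0.15 to a change of −0.68 ± 0.22 (adjusted p = 0.0191). That call was lost without normoxia vehicle replicate 2 (adjusted p = 0.0739) or 5 (adjusted p = 0.0515) and without hypoxia ABT-263 replicates 1 and 4 (adjusted p = 0.073). Gp5, a subunit of the receptor of von Willebrand factor, was at 3.49, 3.93, 4.45, 5.10 and 5.62 CPM against 1.98, 2.21, 2.26, 3.13 and 3.17 CPM, changed by −0.82 ± 0.21 and did not overlap.

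Slc6a4, the serotonin transporter, which takes serotonin into platelets and lung endothelium, had opposed averages of −0.86 ± 0.11 and 0.52 ± 0.11. Its levels were 3.56, 4.64, 5.16, 5.90 and 6.67 CPM and 3.75, 3.91, 4.09, 4.13 and 4.47 CPM, which overlapped, and the difference of −0.35 ± 0.16 did not pass (adjusted p = 0.104). It passed without normoxia vehicle replicate 1, at −0.45 (adjusted p = 0.0302), and with the treatment read from the tag, at −0.58 (adjusted p = 0.0208). Draxin, a secreted axon guidance protein, and Nup205, a nuclear pore protein, also stood among the 21, with averages of −1.48 ± 0.21 and 0.81 ± 0.21 for Draxin and −0.38 ± 0.10 and 0.40 ± 0.10 for Nup205. The reverse pattern held for Tifa, an adaptor of NF-kappaB signalling (0.16 ± 0.06 and −0.23 ± 0.06), and the mitochondrial factor Mterf2 (0.27 ± 0.08 and −0.31 ± 0.08). Over the list of 26 platelet and megakaryocyte genes the median was −0.72 for hypoxia, 0.27 for ABT-263 and −0.47 in the combined contrast, with 11 genes lower and 2 higher, beside 17.2% and 17% of all genes. Itga2b, the integrin of platelets, changed by −1.05 ± 0.21, without overlap. The list's 2 rises were Mmrn1 and Gng11, which are also expressed in endothelium. The number of opposed genes was 6, 7, 7 and 15 without normoxia vehicle replicates 1, 3, 4 and 5, 9 and 12 without normoxia ABT-263 replicates 1 and 6, 9, 12, 15, 12 and 13 without hypoxia vehicle replicates 1, 2, 3, 5 and 6, and 40, 42, 7 and 8 without hypoxia ABT-263 replicates 1, 3, 4 and 5.

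Departure from addition was tested as the interaction, which is the combined change minus the sum of the single-factor changes. No gene passed at an adjusted p under 0.05 in edgeR's quasi-likelihood test (0%), 1546 had an unadjusted p under 0.05, and DESeq2 called 17. Without hypoxia ABT-263 replicate 1 edgeR called 2 genes. The median standard error of the interaction was 0.16, so that its 95% intervals are wide and a missed threshold does not show that the effects simply added. For B cell genes the interaction was −0.20 (95% interval −0.56 to 0.15) for Cd79a and −0.06 (95% interval −0.46 to 0.34) for Cd22. List medians of the interaction were −0.03 for B cell, 0.28 for T cell and 0.29 for NK genes, beside −0.02 over all genes. The median with ABT-263 was −0.52 in normoxia and −0.26 in hypoxia for T cell genes. For NK genes these medians were −0.74 and −0.48, and for B cell genes −0.60 and −0.64. With ABT-263 in hypoxia 11 of 27 B cell, 1 of 27 NK and 0 of 26 T cell genes were lower, beside 0.301% of all genes called. These list differences were not tested. For the mitotic gene Ttk the interaction was −0.05 (95% interval −1.18 to 1.09), a wider interval than those of Cd79a and Cd22. The smallest unadjusted p belonged to Kcnj13, an inward rectifier potassium channel, with −0.66 (95% interval −0.94 to −0.37), and to Ces2e, a carboxylesterase, with 1.12 (95% interval 0.64 to 1.61) (adjusted p = 0.286 for each). Ces2e was at 3.34, 3.64, 3.97, 4.25 and 4.77 CPM in the controls, 1.68, 1.79, 2.24, 2.38, 2.74 and 2.76 CPM with ABT-263 alone, 3.95, 4.03, 4.84, 5.34, 5.75 and 6.01 CPM with hypoxia alone and 4.35, 5.65, 6.29, 6.996 and 7.68 CPM with both. The libraries with ABT-263 alone lay below all others, while those with both factors overlapped those with hypoxia alone and reached higher.

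**Figure D4:**
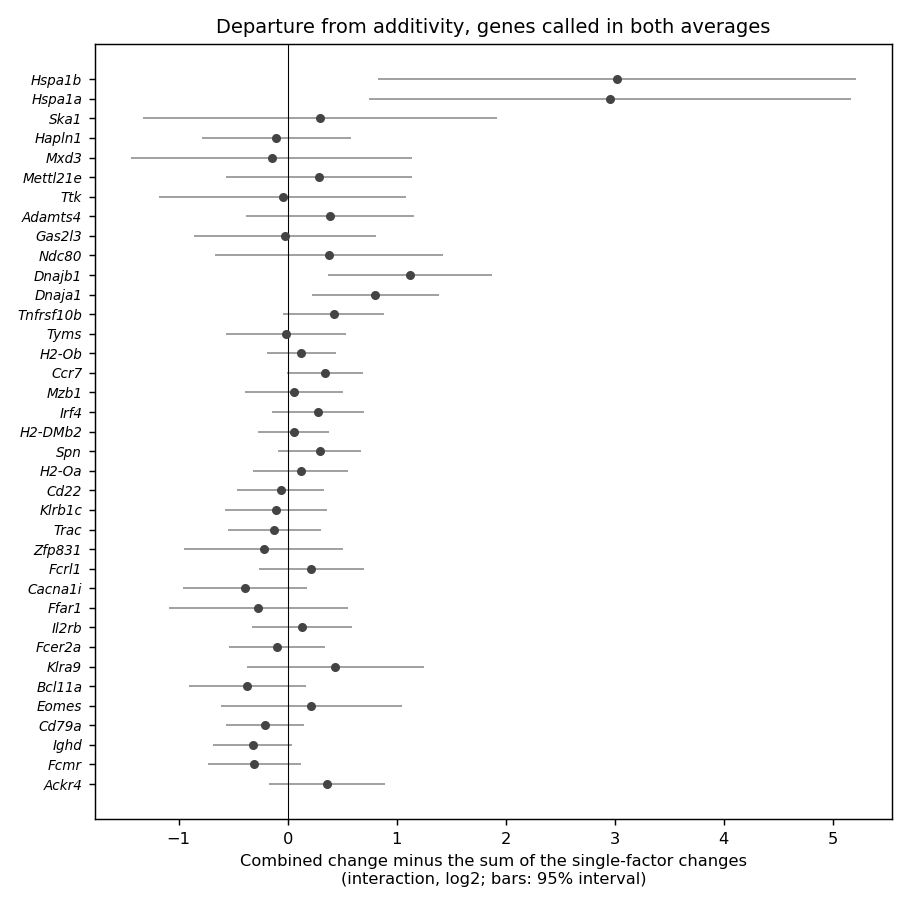
Interaction on the log2 scale, the combined change minus the sum of the single-factor changes, for named genes that passed in both averages, with 95% intervals. Intervals include 0 for the genes shown other than Hspa1b, Hspa1a, Dnajb1 and Dnaja1, for which none of the adjusted p-values passed.

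Many gene groups changed in the combined contrast with hypoxia while the average of ABT-263 was near 0. Of 42 extracellular matrix genes 29 rose and none fell, beside 17% and 17.2% of all genes. The list median was 0.60 in the combined contrast, 0.55 for the hypoxia average and 0.09 for that of ABT-263. Aspn, a small leucine-rich proteoglycan, was at 21.8, 22.2, 26.4, 29.1 and 44.8 CPM against 108, 109, 115, 127 and 144 CPM and rose by 2.06 ± 0.14. Mfap4, a microfibril protein, was at 385, 434, 513, 525 and 679.9 CPM against 1504, 1529, 1657, 1797 and 2070.0 CPM and rose by 1.75 ± 0.14. Neither gene's groups overlapped. Ltbp2, which binds elastic fibres, rose by 1.17 ± 0.11. The collagen cross-linking enzyme Lox was at 36.2, 39.3, 45.1, 46.3 and 65.8 CPM against 110.3, 116, 119, 146 and 175 CPM and rose by 1.52 ± 0.15.

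Pericyte genes rose in 12 of 17 cases, beside 17% of all genes, and fell in none (median 0.43). Higd1b, a mitochondrial protein that marks lung pericytes, was at 29.1, 30.2, 30.7, 31.99 and 33.0 CPM against 61.3, 90.3, 91.8, 99.9 and 118 CPM, and Rgs5, a regulator of G protein signalling, at 13.6, 14.6, 14.7, 14.8 and 20.5 CPM against 33.8, 45.7, 49.0, 49.9 and 52.3 CPM. Their changes of 1.57 ± 0.13 and 1.56 ± 0.16 came from hypoxia, with ABT-263 averages of −0.10 ± 0.08 and 0.02 ± 0.11. Of 22 smooth muscle genes 7 rose, beside 17% of all genes, and 2 fell (4 without hypoxia vehicle replicate 5, 1 without normoxia vehicle replicate 3 or hypoxia ABT-263 replicate 3). The actin-binding protein Tagln was at 265, 294, 295, 315 and 381 CPM against 602, 604, 663, 673 and 751 CPM and rose by 1.09 ± 0.12, and Cald1, which regulates contraction, rose by 0.76 ± 0.09. Gucy1b1, a subunit of the nitric oxide receptor, rose by 0.59 ± 0.10.

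Endothelial genes went both ways. Of 16 general capillary genes 7 fell and 5 rose, of 19 aerocyte genes 7 fell and 3 rose, and of 30 pan-endothelial genes 9 fell and 10 rose, where 17.2% of all genes fell and 17% rose. The share of aerocyte rises was near that of all genes. The aerocyte rises were 0 without normoxia vehicle replicate 1 or 3 and 1 without hypoxia ABT-263 replicate 1. The general capillary rises were 3 without normoxia vehicle replicate 3 or 4 or hypoxia ABT-263 replicate 1 or 5. Beside Plvap, the ligand Bmp6 (−1.54 ± 0.16), Eng, a co-receptor of BMP9 (−1.25 ± 0.13), the endothelin receptor Ednrb (−0.94 ± 0.13) and the adrenomedullin receptor component Ramp2 (−0.73 ± 0.11) were lower. The sialomucin Emcn was at 74.6, 75.4, 78.5, 79.5 and 82.0 CPM against 148, 172, 183, 194 and 214 CPM and rose by 1.23 ± 0.09, and the chemokine Cxcl12 rose by 1.22 ± 0.16. Of 15 vein and lymphatic genes 7 rose, beside 17% of all genes, and 2 fell. Prox1, the transcription factor of lymphatic endothelium, was at 2.19, 2.66, 2.77, 3.36 and 3.51 CPM against 5.65, 7.10, 7.78, 8.01 and 8.84 CPM, a change of 1.37 ± 0.19. Mmrn1, a lymphatic and platelet protein (1.72 ± 0.16), and Reln, a secreted protein of lymphatic vessels (1.48 ± 0.16), rose with it. Bmpr2, the receptor gene of heritable pulmonary hypertension, was at 225, 264, 278, 284 and 285 CPM against 155, 161, 162, 184 and 222 CPM and fell without overlap. The averages behind its change of −0.60 ± 0.12 were −0.62 ± 0.08 for hypoxia and 0.02 ± 0.08 for ABT-263.

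Erythroid genes rose in 12 of 22 cases, beside 17% of all genes, and fell in 2. The globin copies Hbb-bt (1.47 ± 0.18) and Hbb-bs (1.30 ± 0.18), whose counts share reads, were among those that rose. Haemoglobin genes took 0.403% to 0.563% of counts in normoxia with vehicle and 0.88% to 1.44% in hypoxia with ABT-263. In alveolar macrophage genes 13 of 24 rose, again beside 17%, and 1 fell (median 0.41). Ctsk, a lysosomal protease, was at 26.8, 28.9, 31.9, 34.1 and 39.0 CPM against 69.0, 74.3, 79.0, 82.7 and 98.7 CPM, a change of 1.33 ± 0.11, and the chitinase-like protein Chil3 changed by 1.07 ± 0.18.

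Targets of hypoxia-inducible factor went both ways, with 13 of 44 higher, beside 17% of all genes, and 5 lower, below the 17.2% of all genes. The number lower was 3 without normoxia vehicle replicate 2 or 4 or hypoxia ABT-263 replicate 5. The mitophagy receptor Bnip3 was at 39.0, 39.8, 41.0, 45.6 and 58.0 CPM against 69.6, 87.9, 91.3, 93.7 and 94.2 CPM and rose by 0.96 ± 0.10. The glucose transporter Slc2a3 was at 9.18, 11.2, 12.2, 12.7 and 12.8 CPM against 5.04, 5.48, 5.80, 5.89 and 6.78 CPM, and fell without overlap, with −1.12 ± 0.09 from hypoxia and 0.12 ± 0.09 from ABT-263. Of 16 oxygen sensing subunits and regulators 5 rose and 3 fell, the latter near the share of all genes. Epas1, which encodes HIF-2 alpha, was at 1714, 1715, 1983, 2030.0 and 2042 CPM against 888, 902, 909.6, 919.8 and 1028 CPM and changed by −1.03 ± 0.11, while Hif1a changed by 0.48 ± 0.09 and Vhl, which marks both proteins for degradation, by 0.39 ± 0.08.

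Airway and heart muscle genes fell in part. Of 23 club and secretory cell genes 10 fell and 1 rose, and of 19 cytochrome P450 genes 9 fell and 2 rose, beside 17.2% and 17% of all genes. Cyp2f2, the club cell P450 enzyme, was at 7059, 7461, 7662, 8140.0 and 8575 CPM against 3823, 4028, 4034, 4219 and 4793 CPM, and Cyp4b1 at 491, 566, 586, 587 and 611 CPM against 265, 272, 281, 285 and 301 CPM. Both changed without overlap, by −0.90 ± 0.16 and −1.02 ± 0.12. Of 21 heart muscle genes, which mouse lung expresses in the walls of pulmonary veins, 8 fell, beside 17.2% of all genes, and none rose, and 4 and 5 fell without normoxia vehicle replicate 3 and hypoxia ABT-263 replicate 2. Myh6, the heart's alpha myosin, was at 232, 295, 296, 372 and 446 CPM against 100, 110.2, 125, 145 and 197 CPM. The list medians of the averages were −0.21 for hypoxia and −0.26 for ABT-263.

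**Figure D5:**
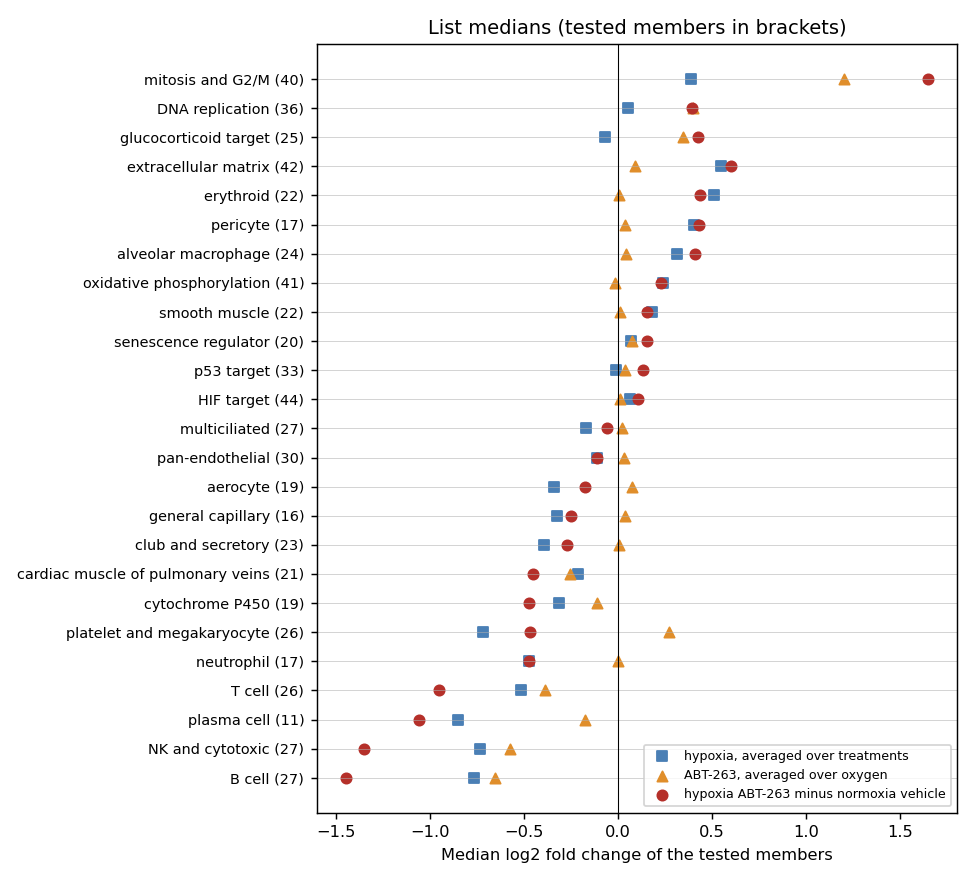
Median log2 fold change over the tested genes of 25 lists (number in brackets) for the 2 averages (hypoxia, squares, and ABT-263, triangles) and for the combined contrast (circles). B cell, NK and T cell medians are displaced by both factors, the plasma cell median mostly by hypoxia (−0.85, with −0.17 for ABT-263). The mitosis median follows mostly ABT-263 (1.2, with 0.39 for hypoxia). Combined medians run from −1.45 for B cells to 1.65 for mitosis, and matrix, pericyte and erythroid lists follow hypoxia.

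Of 20 senescence regulators 7 rose and 1 fell, and of 33 p53 targets 13 rose and 5 fell, where 17% of all genes rose and 17.2% fell. The falls of p53 targets were near the share of all genes. Cdkn1a, the cell cycle inhibitor p21 and a p53 target, was at 39.1, 40.9, 43.2, 60.4 and 70.6 CPM in the controls, 71.6, 73.8, 82.8, 89.5, 99.7 and 101 CPM with ABT-263 alone, 45.3, 49.0, 57.3, 58.7, 64.5 and 73.6 CPM with hypoxia alone and 64.7, 66.1, 68.4, 75.7 and 105 CPM with both. The groups overlapped, and the rise of 0.58 ± 0.17 (adjusted p = 0.0112) came from ABT-263 (0.58 ± 0.11) with 0.00 from hypoxia. It was not called without hypoxia ABT-263 replicates 1 and 4 (0.44, adjusted p = 0.0608) or with the treatment read from the tag (0.27, adjusted p = 0.37). Cdkn2a, which encodes p16 and is used as a mark of senescent cells, was at 0.50, 0.531, 0.548, 0.597 and 0.899 CPM against 0.348, 0.413, 0.424, 0.433 and 0.573 CPM and was too low to be tested. The inhibitor Cdkn2c was at 22.02, 22.2, 23.7, 26.9 and 28.4 CPM against 37.5, 41.5, 45.8, 48.7 and 50.2 CPM and rose by 0.86 ± 0.12. Ezh2, Bmi1 and Id1 of the senescence regulator list, which are not cell cycle inhibitors, rose by 0.63, 0.45 and 0.35. The count of rises in that list therefore gives no direction of senescence. Tnfrsf10b, the TRAIL death receptor and a p53 target, was raised by both factors, from 3.50, 3.75, 3.86, 3.87 and 5.30 CPM to 5.89, 6.13, 7.30, 7.71 and 11.2 CPM, with 0.37 ± 0.11 from hypoxia and 0.54 ± 0.11 from ABT-263.

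The proteins that ABT-263 binds are encoded by Bcl2, Bcl2l1 and Bcl2l2. Bcl2 was at 15.6, 18.1, 18.6, 18.7 and 20.4 CPM against 18.9, 21.1, 23.8, 24.1 and 25.5 CPM, with overlap, and rose by 0.31 ± 0.09 (adjusted p = 0.0099), which was not called without hypoxia ABT-263 replicates 1 and 4 (0.23, adjusted p = 0.0937). Bcl2l1, which encodes BCL-XL, was at 76.1, 82.4, 84.2, 92.3 and 114 CPM against 105, 109, 113, 113 and 134 CPM and rose by 0.36 ± 0.12 (adjusted p = 0.0203), a call lost without normoxia vehicle replicate 3 (adjusted p = 0.0586) or hypoxia ABT-263 replicate 4 (adjusted p = 0.0583). Bcl2l2, which encodes BCL-W, differed by 0.16 ± 0.11 and did not pass (adjusted p = 0.287), except without hypoxia ABT-263 replicate 3 (0.27, adjusted p = 0.0276). Mcl1, an anti-apoptotic protein that ABT-263 does not block, was at 372, 417, 446, 469.9 and 496 CPM against 455, 572, 581, 588 and 642 CPM and rose by 0.37 ± 0.09 (adjusted p = 0.00391). Over the BCL-2 family 6 of 20 rose and 2 fell, beside 17% and 17.2% of all genes. The falls were the pro-apoptotic Bmf (−0.57 ± 0.12) and Bcl2l11, which encodes BIM (−0.56 ± 0.12), and the effector Bax rose by 0.41 ± 0.08.

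Secreted factors associated with senescence rose in 22 of 56 cases, beside 17% of all genes, and fell in 10, near the 17.2% of all genes, the latter being 6 without normoxia vehicle replicate 1 or hypoxia ABT-263 replicate 5. Pgf, the placental growth factor, was at 3.36, 3.95, 3.98, 4.50 and 5.84 CPM against 11.99, 12.04, 13.3, 14.9 and 17.1 CPM, a change of 1.68 ± 0.13, and Vegfc, the lymphatic growth factor, changed by 1.51 ± 0.13, whereas Igfbp3 was at 131, 137, 143, 145 and 147 CPM against 33.3, 34.2, 37.8, 40.6 and 42.2 CPM. The ligands and receptors of the BMP, activin and TGF-beta families rose in 16 of 45 cases and fell in 10, beside the same shares, with Gdf11, an activin-type ligand, at 2.60, 2.62, 3.18, 3.36 and 3.87 CPM against 8.20, 8.29, 9.83, 10.6 and 11.4 CPM. Glucocorticoid targets rose in 9 of 25 cases, beside 17% of all genes, and fell in 3. Their list median was 0.43 in the combined contrast, −0.07 for the hypoxia average and 0.35 for that of ABT-263, and the first was 0.28 without hypoxia ABT-263 replicate 4. Ddit4, an inhibitor of mTOR signalling, which also responds to hypoxia, was at 18.4, 21.3, 22.1, 27.5 and 32.1 CPM against 34.0, 41.5, 59.2, 60.9 and 70.1 CPM and rose by 1.13 ± 0.26, with 0.56 ± 0.18 from hypoxia and 0.58 ± 0.18 from ABT-263 (adjusted p = 0.0891).

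Other lists changed in part of their members, and their counts stand beside 17% of all genes higher and 17.2% lower. Antioxidant genes fell in 10 of 25 cases and rose in 2. The glutathione transferase Gsta3 changed by −0.48 ± 0.09, whereas Gpx3, the extracellular glutathione peroxidase and one of the rises, was at 1282 ± 181 CPM (SD, n = 5) in the controls and 2089 ± 137 CPM (SD, n = 5) in hypoxia with ABT-263. Notch pathway genes fell in 9 of 19 cases and rose in 5 (3 without normoxia vehicle replicate 4). The falls included the arterial ligand Dll4 (−1.58 ± 0.10) and the receptor Notch2 (−0.57 ± 0.09). Monocyte and interstitial macrophage genes fell in 9 of 22 cases and rose in 4 (2 without normoxia vehicle replicate 1 or 3 or hypoxia ABT-263 replicate 4), with the sialophorin Spn at −1.21 ± 0.14 and the growth factor receptor Csf1r at −0.62 ± 0.09. Ms4a7 was among the rises, at 0.99 (adjusted p = 1.54e-05). Genes of dendritic cells and MHC class II fell in 6 of 20 cases and rose in 3, the latter near the share of all genes. The falls included H2-DMb2 (−1.18 ± 0.12), H2-Oa (−1.37 ± 0.16) and H2-Ob (−0.94 ± 0.11), which load or regulate loading of peptides and were lowered by both factors. H2-DMb1 of the same list went the other way and rose by 0.57 (adjusted p = 7.21e-05).

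Alveolar genes changed in a minority of each list. Alveolar type 2 genes fell in 8 of 22 cases and rose in 2 (4 and 1 without hypoxia ABT-263 replicates 1 and 4), with the lineage factor Nkx2-1 at −0.47 ± 0.09 and the lipid transporter Abca3 at −0.44 ± 0.09, while alveolar type 1 genes rose in 4 of 18 and fell in 1. The type 1 rises were near the share of all genes (17%) and the type 2 rises below it. Fibroblast genes rose in 7 of 23 cases, beside 17% of all genes, and fell in none, such as Dpt, the matrix protein dermatopontin (0.73 ± 0.08), and Mfap5, a microfibril protein (0.88 ± 0.13). Arterial genes rose in 8 of 19 cases and fell in 6, beside 17% and 17.2% of all genes, with elastin, Eln, at 1.84 ± 0.25 and the calcification inhibitor Mgp at 1.03 ± 0.13.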

How the data were processed

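The authors deposited 1 table of expected counts per gene, made with Trimmomatic, STAR and RSEM on GRCm38 per the submitters' processing notes, from stranded mRNA libraries per the labels' protocols. Versions are not given in the sources used here. RSEM divides reads between near-identical genes, so their split is uncertain. Expected counts were rounded, filtered with filterByExpr (minimum count 10, 16638 of 54532 genes), scaled by TMM and fitted with edgeR 4.0.16 (robust quasi-likelihood, R 4.3.3) in 1 model of the 4 groups of 22 libraries. Groups came from titles. Tests are two-sided with Benjamini-Hochberg adjustment over all tested genes at 0.05. CPM use library totals (11509007 to 15744193 counts) multiplied by the TMM factors, and list levels add 0.5 CPM. Values after ± are standard errors of log2 fold changes unless named SD. They and the 95% intervals were derived from each log2 fold change and its test statistic in the fit of all 22 libraries. The compared groups hold 5 libraries each, and the groups with 1 factor alone, which enter the averages and single-factor changes, hold 6 each. On simulated data the fit of the combined contrast, with 200 of 16482 genes changed, recovered 65.7%, 89.6% and 100% of 1.5-, 2- and 4-fold changes. The changed genes were drawn from those with a mean of at least 2 CPM, so these shares do not cover lower genes. In the same simulation 5 unchanged genes were called. Far fewer genes changed in it than the 34.3% that passed in the data, and no simulated library was made to stand apart. The simulated shares and false calls therefore need not hold for the data. Replicates of a group differed by more than counting noise in every pair (chi-square per gene 5.77 to 45.1). Alternatives were DESeq2 1.42.0, RLE scaling, library totals without TMM, other filters, a fit of the compared groups only, the 3 libraries with conflicting labels left out, the treatment from the tag, and each library left out. Named genes are the 12 largest rises and falls at a minimum level, the leading genes of each set, list and the interaction, and a few of known interest. The members and lists were chosen with earlier results of these data known. Promoter windows of 250 bases come from RefSeq on GRCm38.p6. Some genes of the lists are not reported by name here.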

Additional observations from a re-analysis of the deposited data

Results flagged for a closer look

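In groups of 5 libraries, the highest or lowest library was tested for standing apart from the other 4 by Dixon's rule, in 338 groups of values for 130 genes and the list levels. It did so in 23, where chance gives about 1 in 20 groups. Hypoxia ABT-263 replicate 5 was the high library for Hspa1b at 168 CPM and Hspa1a at 163 CPM, whose other libraries lay at 3.32 to 33.2 and 3.53 to 30.8 CPM. It was also high for Eomes at 1.24 CPM (others 0.573 to 0.721), for Gpx3 at 2325 CPM (others at most 2089) and for the erythroid list level at 6.09 (others 5.65 to 5.76). Hypoxia ABT-263 replicate 4 was high for Cdkn1a at 105 CPM (others 64.7 to 75.7), Bcl2l1 at 134 CPM (others 105 to 113) and the antioxidant list level at 6.91 (others 6.52 to 6.61). The same library was low for Bnip3 at 69.6 CPM (others 87.9 to 94.2), Abcg3, a nucleotide-binding transporter, at 8.70 CPM (others 10.6 to 11.2) and Bcl11a at 1.13 CPM (others 1.64 to 1.82). Hypoxia ABT-263 replicate 1 was high for Ighd at 31.9 CPM (others 20.8 to 23.9) and Epas1 at 1028 CPM (others 888 to 919.8). Hypoxia ABT-263 replicate 3 was low for Ttk at 1.31 CPM (others 2.89 to 3.54) and high for H2-Ob at 29.9 CPM (others 21.3 to 23.6).

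In normoxia with vehicle, replicate 5 was high for Ntrk2 at 13.9 CPM (others 9.87 to 11.0) and Tnfrsf10b at 5.30 CPM (others 3.50 to 3.87), and replicate 2 for Cdkn2a at 0.899 CPM (others 0.50 to 0.597) and Rgs5 at 20.5 CPM (others 13.6 to 14.8). Replicate 1 was high for Bax at 71.7 CPM (others 59.2 to 61.6) and for the oxidative phosphorylation list level at 7.21 (others 6.88 to 6.97). Replicate 4 was high for H2-Oa at 16.3 CPM (others 10.7 to 12.1) and replicate 3 for Ffar1 at 4.36 CPM (others 1.87 to 2.50).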

How the results depend on the processing

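The combined count of 5704 was 4863 to 5925 with single libraries left out and 4891 to 5963 under the other settings. The numbers of genes in which both averages passed were less stable. Genes raised by both (61) numbered 37 without TMM, 24 without the low-count filter, 136 in DESeq2, 0 with the treatment from the tag and 16 to 114 with single libraries left out. Genes lowered by both (163) numbered 0 with the tag and 103 to 224 with single libraries left out. Opposed genes (24) numbered 9 without the filter, 69 in DESeq2, 0 with the tag and 6 to 42 with single libraries left out. In alternatives chosen after seeing the data, leaving out hypoxia ABT-263 replicates 1 and 4 gave 15 opposed genes, and leaving out normoxia ABT-263 replicates 1, 2 and 6 as well gave 34 raised and 105 lowered by both. The interaction, 0 in the fit reported, gave 17 genes in DESeq2, 1 without the libraries with conflicting labels, 0 to 2 with single libraries left out, and 2 and 29 in the alternatives chosen after seeing the data. The causes were not tested. Of the 224 genes raised or lowered by both, 223 kept both calls and signs in DESeq2, 143 without the libraries with conflicting labels and 0 with the tag. The heat shock list's median was −0.0213 without hypoxia ABT-263 replicate 5 and up to 0.163 with other libraries left out. That median was the 1 value counted as reversed, where sign changes of small or uncalled values were not counted. Among other values 7648 stayed the same, 189 moved, 28 lost and 5 gained a call. For counts and list medians, the same means near the value reported. Counts of at most 4 members in the less frequent direction of a list shifted by up to 3. The median log2 fold change of all genes was −0.0131 with TMM, −0.0069 with RLE and −0.0167 with library totals. Low genes such as Cdkn2a could not be tested at this depth. No paired analysis was possible because the labels give no replicate numbers shared between groups.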
